A study of Sus scrofa with 24 samples.

Results

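The ZNF genes are zinc finger genes named ZNF and a number, and 201 of the 13755 genes with a named probe set on the array carried such a symbol. They were chosen by that symbol alone, through 352 probe sets, and each gene was represented by its brightest probe set, the one with the highest median over the fetuses. The samples were longissimus dorsi muscle of 24 F2 pig fetuses of a German Landrace and Pietrain cross at 63 days post conception (dpc), with 1 array per fetus. The study asked how muscle differs between heavy and light fetuses, but the sample labels place no fetus in a weight group. All 24 fetuses were therefore described as 1 set, no fetus was treated as a control, and the weight groups listed in the study entered no test. The fetuses came from F1 sows, and the labels do not say which of them shared a dam. The study lists a dam, sex and weight for each fetus, but that listing entered no test here. The tests below therefore treat littermates as independent and take no account of litter, sex or weight. What part these had in any value was not tested. Each array measured a whole piece of muscle, in which fewer cells of a type and less RNA per cell cannot be told apart.

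Most ZNF proteins carry rows of zinc fingers in which pairs of cysteines and histidines hold a zinc ion, and each finger can read a few bases of DNA. A large share of them also carries a KRAB domain, which recruits the corepressor TRIM28 and, through it, the histone methyltransferase SETDB1 and heterochromatin proteins, and is best known for silencing transposable elements. Others carry a SCAN or BTB domain for pairing with other proteins, or act as activators at promoters, as partners of chromatin enzymes or as factors of mesenchymal progenitors, the cells from which muscle connective tissue and fat arise. Some, such as ZNF185, bear the name with no fingers of this kind. Many KRAB members lie in clusters of similar genes. Probe sequences were not used here, so signal shared between near-identical members cannot be told apart from their own.

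The labelled tissue was checked first. Of 11 skeletal muscle markers, 8 had a probe set and 7 lay above the dim-signal filter, with the fibre genes CKM, ACTA1, TTN, TNNT3, DES and MYLPF at median log2 values of 12.48 to 13.48. The progenitor gene MYF5 was at 3.38, and MYOG, MYH3 and MYH8 were not represented by a named probe set. Array medians were 6.61 to 6.73, and each array differed from every other.

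A ZNF gene was kept when its value exceeded the array's median in at least 20 of 24 arrays. This left 143 of 201 ZNF genes (71.1%), against 70.6% of all genes. Of the 58 that failed, 32 were above the array median on no array and 26 on 1 to 19 arrays. The dimmest was ZNF558 at a median of 3.27. Background control probe sets, which match no transcript, had class medians of up to 9.70, at 24 G or C bases, and 6 ZNF genes that passed lay above that level. A level below it can hold unspecific signal, so levels of different genes were not compared further, other than to name the brightest.

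The brightest 5 belong to different functional groups. ZNF521, a factor of mesenchymal and neural progenitors that opposes EBF1, ran from 10.13 in fetus 376 through a median of 10.48 to 10.76 in fetus 370. ZNF638, a cofactor of C/EBP proteins in fat cell formation, ran from 9.95 in fetus 283 through 10.46 to 10.96 in fetus 338. ZNF644, a partner of histone H3 lysine methyltransferases, ran from 9.78 in fetus 307 through 10.38 to 10.96 in fetus 338. The 2 genes last named were thus highest in the same fetus, whereas ZNF521 was not. ZNF207, which carries the checkpoint protein BUB3 to kinetochores, had a median of 10.28 and a single low fetus, 384 at 9.39, with the next lowest at 9.95 and the highest, fetus 338, at 10.56. ZNF384, a regulator of matrix genes in bone cells, ran from 9.74 through 9.99 to 10.24.

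Differences between fetuses were measured as the span, the 90th minus the 10th percentile of a gene's log2 values over fetuses. The median span of the 143 ZNF genes was 0.37 (jackknife SE 0.022, n = 24 fetuses), and that of the 9563 other genes that passed was 0.42. A span of at least 1, which is at least a doubling, was found in 6 ZNF genes (4.20%), against 2.23% of all genes. With counts this small, the share is given as a description. Among the 58 ZNF genes that failed the filter 5 had such a span (8.62%, against 8.1% of all genes that failed). The plot of span against level shows these 6 at median levels of 7.26 to 9.12, with none among the brightest genes.

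**Figure D1:**
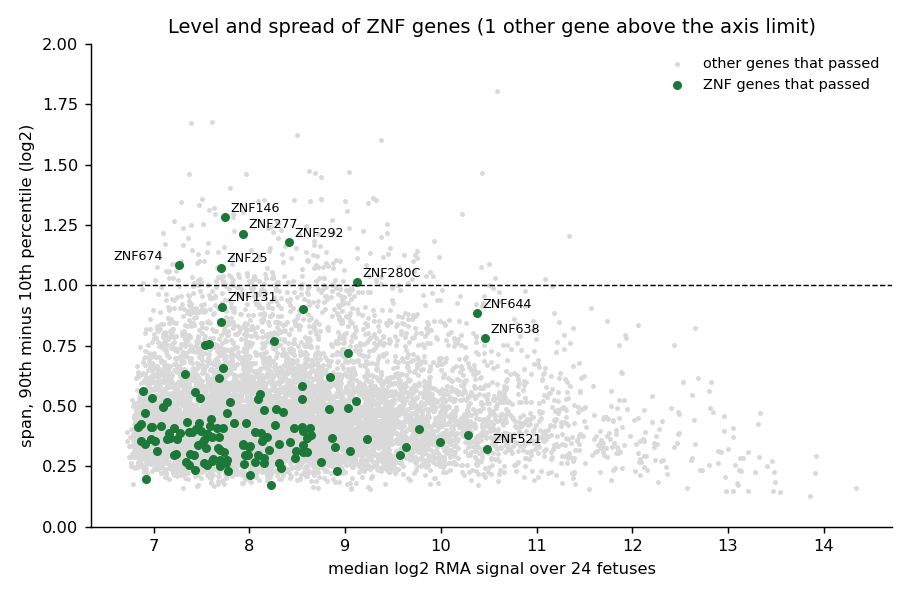
Median log2 level (horizontal axis) against span in log2 units (vertical axis) of the 143 ZNF genes (green) and the other genes (grey) that passed the filter, 1 point per gene, with some wide or bright ZNF genes named, a dashed line at a span of 1 and 1 other gene beyond the axis. Most ZNF genes lie below a span of 0.5, and ZNF146 stands highest at 1.28.

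ZNF146, which consists of little more than fingers, had the widest span, 1.28 or 2.43-fold. It ran from 6.89 in fetus 313 through a median of 7.74 to 8.78 in fetus 338, and 307 and 340 were next to 313 at the low end. ZNF277, which binds the ribosomal protein RPS2, ran from 7.15 in fetus 283 through 7.94 to 8.87 in fetus 338, a span of 1.21. Its second high fetus, 274 at 8.84, was not among the 5 highest for ZNF146. ZNF292, first described from its binding to the growth hormone promoter in rat, ran from 7.64 in fetus 307 through 8.41 to 9.25 in fetus 320, a span of 1.18.

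The KRAB genes ZNF674 and ZNF25 and the gene ZNF280C, named after a fly insulator protein, had the other spans over 1. ZNF674 ran from 6.47 in fetus 272 through 7.26 to 7.88 in fetus 338. ZNF25 ran from 7.06 in fetus 313 through 7.70 to 8.58 in fetus 338, and ZNF280C from 8.52 through 9.12 to 10.05 in the same fetuses. Fetus 338 was therefore the highest for 5 of the 6 genes, ZNF292 being the exception, where it was second at 9.15. Without fetus 338, 5 ZNF genes had a span of at least 1 (3.47%), against 1.71% of all genes.

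Just below the threshold of 1 stood ZNF131, a BTB member with a span of 0.91, ZNF148, which binds GC-rich promoters, at 0.90, ZNF644 at 0.88 and ZNF185 at 0.85. ZNF185 is a LIM domain protein of the actin skeleton and differed from the rest in its fetuses. It was lowest in fetus 338 at 6.97, had a median of 7.70 and was highest in fetus 370 at 8.48.

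At the other end stood 5 genes of small span. ZNF174, a SCAN member, had the smallest span, 0.17, and ran from 7.98 through 8.22 to 8.40. The KRAB gene ZNF786 had a span of 0.20, ZNF511 of 0.21, ZNF34 of 0.23 and ZNF827, which brings the NuRD complex to telomeres, of 0.23. These spans are differences of 1.13-fold to 1.17-fold between the 10th and 90th percentile.

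The wide genes moved together, and they moved with many other genes. The main axis of the muscle transcriptome was taken as the first principal component of the 9563 genes that passed and are no ZNF gene, which held 39.6% of their variance, turned so that the muscle actin ACTA1 had a positive r (0.456). The score was lowest in fetuses 338, 320 and 311 and highest in 313, 283 and 272. The study lists 338, 320 and 311 among its growth-restricted fetuses and 313, 283 and 272 among those of appropriate weight. The part of weight in the score was not tested. By limma with Benjamini-Hochberg adjustment over all 9706 genes, 46 ZNF genes were called higher with the score (32.2%, against 36.2% of all genes), 42 were called lower (29.4%, against 22.7%), and 55 were not called. The share called lower lay above the background and the share called higher below it. An r of -0.8 or less was found for 18 ZNF genes (12.6%, against 10.8%), and an r of 0.8 or more for 3 (2.10%, against 2.8%).

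**Figure D2:**
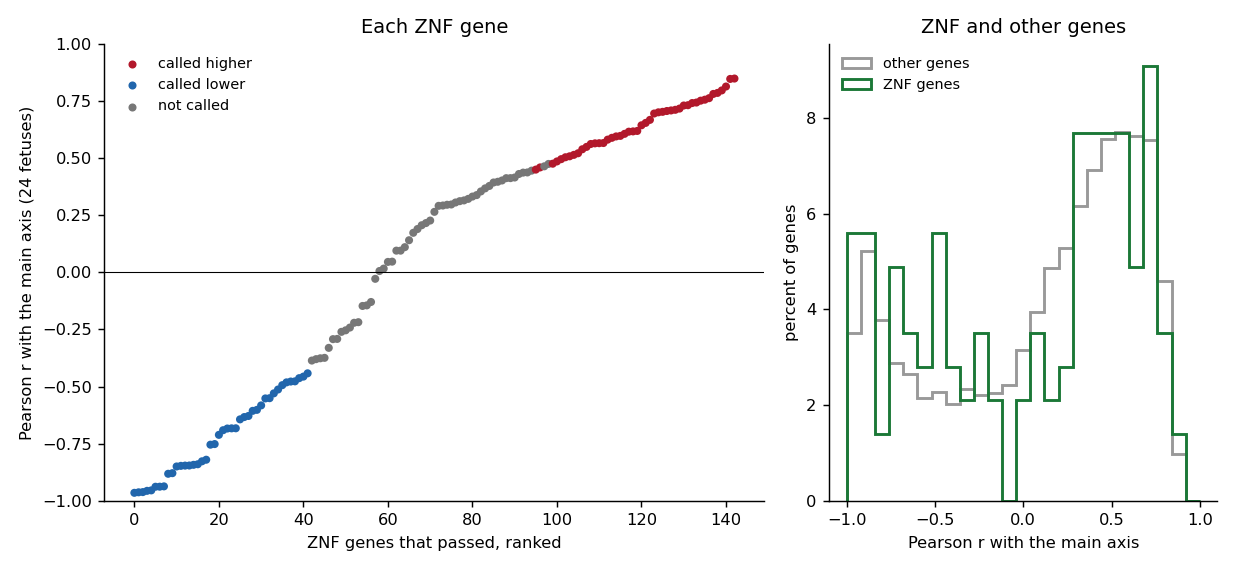
Pearson r of each of the 143 ZNF genes with the main-axis score over 24 fetuses, ranked and coloured by the limma call, beside the histogram of r for ZNF and other genes as a share of each set. The ranks run from -0.965 (ZNF280C) to 0.849 (ZNF362).

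The 42 genes that fell along the axis included all 6 of span 1 or more and 3 of the 5 brightest, ZNF638, ZNF644 and ZNF207. The call of ZNF207 (r = -0.463, limma adjusted p = 0.0253) was lost without fetus 338 (-0.390). Its sign turned with the control signal described below regressed out (0.0780). In both settings the axis was computed anew. The median span of the 42 genes was 0.49 (0.23 to 1.28), against 0.34 (0.17 to 0.66) for the 46 that rose and 0.36 for those not called. The wide genes and spans of all other genes were not split by call. Whether this pattern is particular to ZNF genes was therefore not tested. ZNF280C had the lowest r, -0.965 (limma adjusted p = 1.15e-13), followed by ZNF644 at -0.963 (6.63e-13), ZNF146 at -0.962 (9.37e-14), ZNF292 at -0.956 (3.28e-13) and ZNF25 at -0.954 (7.31e-13). For each of these 5, the fetuses 338, 320, 311 and 360 were among the 6 highest, and 313, 307 and 340 among the 6 lowest. ZNF148 (r = -0.939), ZNF638 (-0.938) and ZNF131 (-0.937) were close to them. KRAB, BTB, finger-only and promoter-binding members were thus found together at this end.

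The 46 genes that rose along the axis moved less. ZNF362, a relative of ZNF384, had the highest r, 0.849 (limma adjusted p = 3.41e-05), and ran from 8.24 in fetus 338 through 8.55 to 8.71 in fetus 313. ZNF687, which forms a complex with ZNF592 and ZMYND8, had an r of 0.847 (3.88e-05) and ran from 7.73 in fetus 338 through 8.003 to 8.16 in fetus 272. The KRAB gene ZNF777 had an r of 0.814 (0.000111), ZNF423, which commits progenitors to the fat lineage, one of 0.797 (4.71e-05) and ZNF574 one of 0.786 (2.21e-05). ZNF423 ran from 9.25 in fetus 338 through 9.64 to 9.84 in fetus 307. In 4 of these 5 genes the lowest fetus was 338, the fetus that was highest for most of the wide genes, while ZNF777 was lowest in 312.

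**Figure D3:**
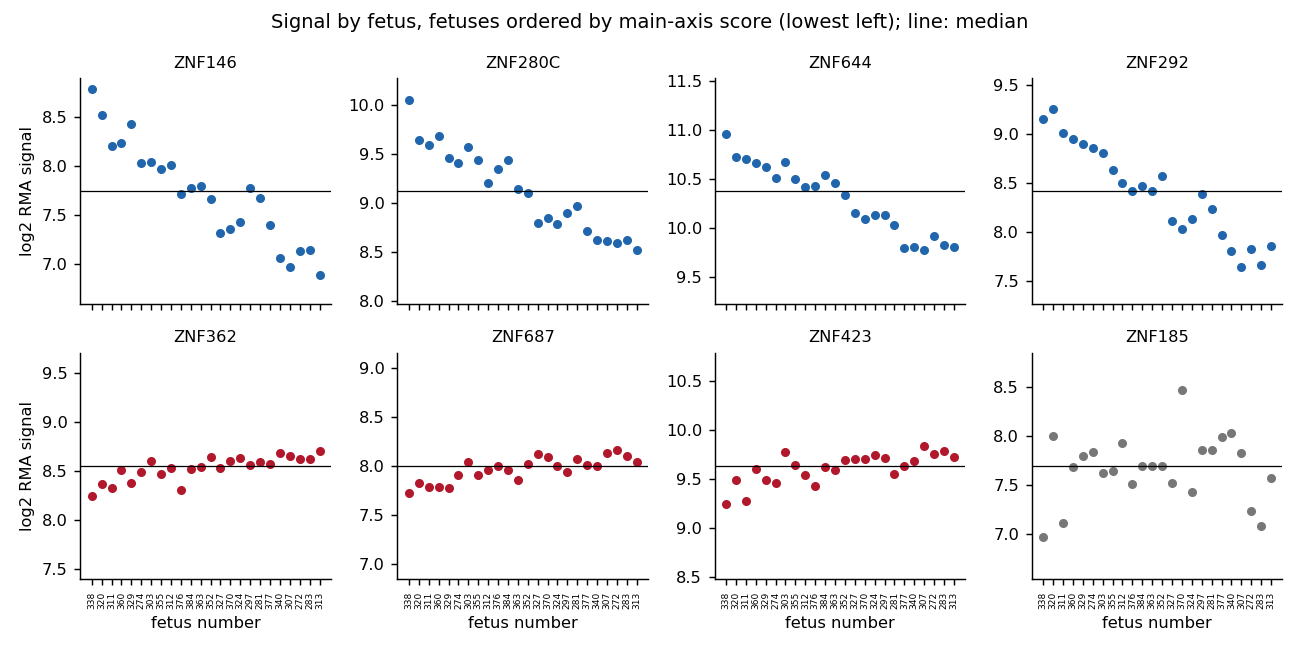
Log2 values of 8 ZNF genes in each of the 24 fetuses, ordered by the main-axis score, with 1 point per fetus. ZNF146, ZNF280C, ZNF644 and ZNF292 fall from the left to the right, ZNF362, ZNF687 and ZNF423 rise by less, and ZNF185 has no called relation (r = 0.141).

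Within the family the pairs followed these classes. The mean Pearson r over all 10153 pairs of ZNF genes was 0.0213 (jackknife SE 0.0039), against 0.0300 for pairs of other genes. It averaged 0.563 among the genes that fell along the axis, 0.430 among those that rose and -0.442 between the classes. An r of at least 0.8 was found for 108 of the 10153 pairs, and the highest were ZNF25 with ZNF280C (0.975) and ZNF280C with ZNF644 (0.974). The most opposed pair was ZNF146 with ZNF687 (-0.857), among 12 of the 10153 pairs at or under -0.8. Pairs of other genes were not counted at these limits, so both counts are a description. All pairs share the same 24 arrays and their normalization, and the classes were formed on the same values.

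The background control signal moved with the axis. It was the mean of 39 control probe sets whose G or C bases numbered at least 13. Its lowest value was 7.30 (fetus 338) and its highest 7.94 (fetus 313), with an r of 0.767 with the main-axis score. Along it, limma called 30 ZNF genes higher (20.98%, against 20.8% of all genes) and 46 lower (32.2%, against 22.8%), and 62 ZNF genes (43.4%, against 36.6%) were called both with the control signal and with the axis. The count called higher depended on single fetuses and on scaling. It was 13 without fetus 338 (9.03%, against 11.3%), 18 without fetus 313 (12.4%, against 13.1%), and 46 (32.2%, against 28.1%) with each array centred on its median, where 44 were called lower (30.8%, against 22.1%). The plot of both correlations shows the genes along a rising diagonal. With the control signal, ZNF146 had an r of -0.775 and ZNF362 one of 0.568. The lowest was ZNF248 (-0.794) and the highest ZNF500 (0.757).

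**Figure D4:**
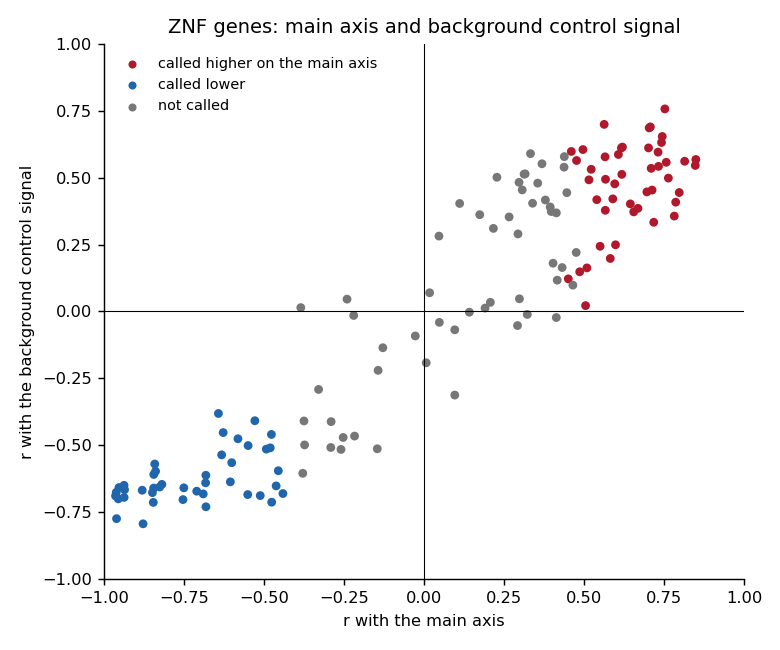
Pearson r with the main-axis score (horizontal axis) against Pearson r with the background control signal (vertical axis) for the 143 ZNF genes, 1 point per gene, over 24 fetuses. Genes at the negative end of the axis also lie at the negative end for the control signal.

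With the control signal regressed out of every gene, no ZNF gene had a span of at least 1, against 0.505% of all genes. The main axis was computed anew from the values left, so it was not the axis used above. Along it the counts were 38 higher (26.6%, against 30.9%) and 20 lower (13.99%, against 15.3%). The share called lower was thus no longer above the background. ZNF827 and ZNF384 were called higher in that setting, with r = 0.731 and 0.594, against 0.464 and 0.415 with the axis used before. A change of gene and a change of axis cannot be told apart in these values. Whether the control signal had a part in the spans was not tested beyond regressing it out.

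Some markers of other cell types were called along the axis as well, where 36.2% of all genes were called higher and 22.7% lower. With lists this small, the calls are given as a description. Of the 5 adipocyte markers, 3 rose along the axis (FABP4, ADIPOQ and CEBPA), and the log2 of their list's summed level was 9.56 to 10.09. Among the endothelial markers that passed, CDH5 rose and TEK and EMCN fell, at a log2 summed level of 11.42 to 11.86, and NGFR of the Schwann cell list rose (8.95 to 9.59). KERA of the tendon and cartilage list fell (10.94 to 13.03), and of the muscle markers 5 rose and TTN fell (15.54 to 15.87). The macrophage list (9.17 to 9.94) and the erythroid list (10.81 to 12.10) had no marker called. CD163 and PTPRC of the macrophage list and the endothelial marker PECAM1 were measured but too dim to pass. The part of these cells in the ZNF values was not tested.

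TRIM28, the corepressor of KRAB members, ran from 9.88 in fetus 384 through 10.30 to 10.63 in fetus 272, with an r of 0.721 with the main axis. Along its level limma called 30 ZNF genes higher (20.98%, against 25.6% of the 9705 other genes) and 21 lower (14.7%, against 14.5%). ZNF362 had the highest r, 0.797 (adjusted p = 0.000803), and ZNF740 the next, 0.790 (0.000346). ZNF280C (r = -0.726), ZNF148 (-0.719) and ZNF25 (-0.717) stood at the other end. ZNF827, with the NuRD role given above, had an r of 0.739 with TRIM28 (adjusted p = 0.00239) and no called relation with the axis (r = 0.464, adjusted p = 0.0515). With the mean of its probe sets that passed the filter, and the axis computed anew, the latter r was -0.433.

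The partners through which KRAB proteins act were found in both directions. Of 28 listed corepressor genes, 25 had a probe set and 21 passed, of which 6 rose along the main axis (28.6%, against 36.2% of all genes) and 6 fell (28.6%, against 22.7%). TRIM28, SETDB1 and EHMT1, which is a histone methyltransferase like SETDB1, the NuRD subunits CHD3 and MTA1, and the DNA methyltransferase DNMT3B rose. The NuRD subunits CHD4 (r = 0.499), HDAC1 (0.0160) and RBBP7 (-0.220) passed and were not called. HDAC2, a histone deacetylase and also a NuRD subunit, fell with the lowest r of the list, -0.963. The chromatin remodelers SMARCAD1 (-0.949) and ATRX (-0.948), the heterochromatin protein CBX3 (-0.908), the SETDB1 cofactor ATF7IP (-0.889) and MORC3 (-0.875) fell as well. The 4 of largest span were among those that fell: CBX3 at 1.30, SMARCAD1 at 1.11, MORC3 at 1.03 and ATRX at 1.03. CBX3 ran from 9.21 in fetus 272 through 10.22 to 11.38 in fetus 338. These 6 genes also had an r of -0.724 to -0.787 with the background control signal.

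Known partners, targets and paralogs of ZNF genes were compared in pairs across fetuses. Of 17 pairs listed, 14 had both genes above the filter, and p-values are two-sided, from 100000 permutations, and adjusted over the 14. ZNF148 and its paralog ZNF281, which bind the same kind of GC-rich promoters, had a Pearson r of 0.922 (p = 1e-05, the smallest these permutations can give; adjusted p = 7e-05) and a Spearman rho of 0.936 (adjusted p = 0.00014). ZNF148 ran from 8.02 through 8.56 to 9.15 and ZNF281 from 8.01 through 8.28 to 8.59, both highest in fetus 338. Without the 2 fetuses farthest from the ZNF148 median r was 0.913. With the main axis regressed out of both genes, it was 0.706 (adjusted p = 0.00154), and no other pair stayed called.

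ZNF592 and ZNF687, which sit in 1 complex, had an r of 0.773 (permutation p = 1e-05, adjusted p = 7e-05), a rho of 0.777 (adjusted p = 0.00021) and an r of 0.726 without the 2 farthest fetuses. Both were lowest in fetus 338 and highest in fetus 272, ZNF592 at 8.39 and 8.92. With the main axis regressed out r was 0.456 (adjusted p = 0.174). The paralogs ZNF143, an activator of small nuclear RNA and other promoters, and ZNF76 moved in opposite directions, with r = -0.542 (permutation p = 0.00629, adjusted p = 0.0294), rho = -0.510 (adjusted p = 0.0342) and r = -0.427 without the 2 farthest fetuses. ZNF143 was highest in fetus 355 at 7.63 and ZNF76 lowest in it at 7.76. That call was lost with the control signal regressed out (r = -0.416).

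ZNF24, described as a repressor of the vascular growth factor gene VEGFA, rose with VEGFA. Its r was 0.518 (permutation p = 0.00956, adjusted p = 0.0335) and its rho 0.553 (adjusted p = 0.0275), and r was 0.675 without the 2 farthest fetuses. ZNF24 ran from 7.78 through 8.25 to 9.13 and VEGFA from 8.41 through 8.94 to 9.37, and both were lowest in fetus 281. The call was lost with the mean of each gene's probe sets that passed the filter (r = 0.291). It was also lost with the control signal regressed out (0.315) and with the main axis regressed out (0.0334). ZNF644 and EHMT1, a methyltransferase it partners, had an r of -0.499 (permutation p = 0.0128, adjusted p = 0.0358). Their rho of -0.418 was not called (adjusted p = 0.0849), and without the 2 farthest fetuses r was -0.284. That relation rests on those fetuses, and it was also lost without fetus 338 (-0.385).

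**Figure D5:**
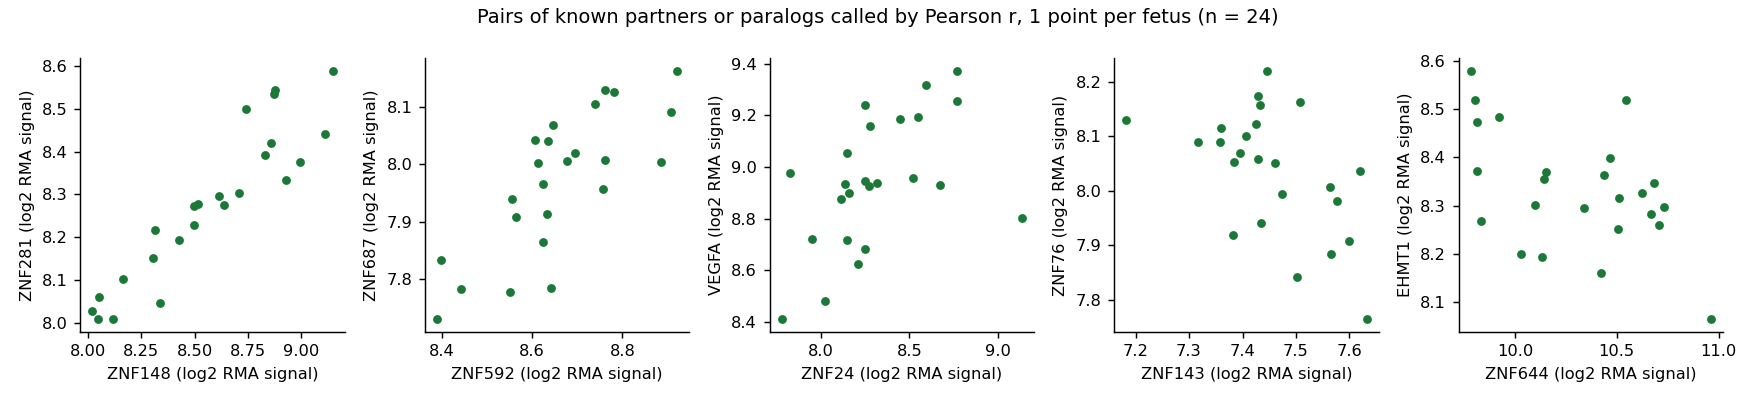
Log2 values of both genes of the 5 pairs called by Pearson r, 1 point per fetus (24 fetuses per panel). ZNF148 with ZNF281 (r = 0.922) forms the narrowest band, and ZNF644 with EHMT1 (-0.499) the widest.

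The other 9 pairs were not called by Pearson r. ZNF207 and BUB3 had an r of 0.335 (adjusted p = 0.218) but a rho of 0.507 (adjusted p = 0.0342). In fetus 384 ZNF207 was at its lowest, 9.39, while BUB3 was at 10.42, above its median of 10.37. Without fetuses 376 and 384, left out after the data were seen, r was 0.674. With the mean of the probe sets that passed it was 0.765, and both were called. With the main axis regressed out it was 0.126 and not called, and with the control signal regressed out its sign turned. ZNF423 and EBF1 had an r of -0.425 (adjusted p = 0.0893). That pair was called without fetus 338 (-0.518), with the mean of the probe sets that passed (-0.672) and with arrays centred (-0.546). With the main axis regressed out its sign turned (0.301, not called). ZNF423 had an r of 0.281 with ZNF521 (adjusted p = 0.290) and of 0.112 with the fat cell regulator PPARG (0.603). For ZNF638 and CEBPB it was -0.293 (0.287), and for ZNF277 and RPS2 -0.238 (0.368). ZNF367 with TOP2A (0.192), ZNF217 with the CoREST protein RCOR1 (0.152) and ZNF219 with SOX9 (0.117), its partner in mouse cartilage, had an r below 0.2. The 24 fetuses did not separate the r of these 9 pairs from 0 after adjustment.

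Genes of 3 pairs had a partner below the filter or with no named probe set, and their own values are given. ZNF703, a corepressor, ran from 8.28 in fetus 376 through 8.84 to 9.16 and rose along the axis (r = 0.717). ZNF335, which belongs to a histone methyltransferase complex, ran from 7.86 through 8.15 to 8.43 and rose as well (0.731). ZNF746, a repressor of PPARGC1A, ran from 6.76 through 7.15 to 7.39 (0.616). Its call was lost with the control signal regressed out and the axis computed anew (0.198).

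ZNF genes that lie next to each other in the RefSeq gene table of Sscrofa11.1 made 27 pairs, of which 11 had both genes above the filter. Their mean r was 0.411 (-0.0352 to 0.766), against 0.192 for 5339 pairs of other neighbouring genes and 0.0213 for all ZNF pairs. With the main axis regressed out, the means were 0.189, 0.0749 and 0.0352. ZNF75D and ZNF449, which carry SCAN domains, had the highest r, 0.766 (0.664 with the axis out). ZNF75D ran from 8.28 through 8.56 to 8.82 and ZNF449 from 7.43 through 7.76 to 8.17. The second brightest probe set of ZNF75D did not follow its brightest, however, with an r of -0.607. ZNF84 and ZNF605 were next at 0.729 (0.475 with the axis out).

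Such disagreement between probe sets was common among the ZNF genes. Other genes were not counted in this way, so whether it is particular to ZNF genes was not tested. Of the 80 ZNF genes above the filter with more than 1 probe set, the brightest and the second brightest had a median r of 0.298, 26 had one over 0.5 and 16 one under 0. Both probe sets agreed for ZNF638 (0.884), ZNF280C (0.878) and ZNF148 (0.850). They did not for ZNF277 (-0.372) and ZNF292 (-0.135), whose second probe sets were dim, with medians of 2.43 and 4.67. Nor did they for ZNF207 (-0.127) and ZNF592 (0.136), whose second probe sets were bright, with medians of 8.47 and 8.22. ZNF146, ZNF25, ZNF131 and ZNF644 had 1 probe set each, so their values have no such check.

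Of the families with related names, ZBTB had 30 of 34 genes above the filter, with a median span of 0.44 and none of 1 or more. Along the main axis 10 of them rose (33.3%, against 36.2% of all genes) and 12 fell (40.0%, against 22.7%). ZSCAN and ZKSCAN had 8 of 9 above the filter, of which 1 rose (12.5%) and 2 fell (25.0%), and ZFP 8 of 10, of which 2 rose (25.0%) and 3 fell (37.5%), against the same shares of all genes. Differences between the families were not tested.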

How the data were processed

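Porcine Snowball arrays (Affymetrix) were hybridized with total RNA of 24 muscle samples, for which the processing notes of the submitters list GCOS 1.1.1. The authors normalized the arrays by robust multichip average (RMA) and deposited the resulting log2 values (24 fetuses, 47845 probe sets, values of 0.78 to 14.62). RMA gives all arrays 1 distribution and thereby removes differences in overall brightness. For the array's genome build, nothing was given in the sources used, and coordinates are left out. The platform annotation gave 1 symbol for 26426 probe sets, and 199 of the 201 ZNF symbols were in the RefSeq gene table of Sscrofa11.1. The number of arrays limits the precision.

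Members and lists were chosen with earlier results of these data known. The genes named are those of the listed pairs, the 10 of largest and 5 of smallest span, the 5 of highest median, the 5 at either end of the main axis, the 2 pairs of highest r and the neighbour pair of highest r, and any others were chosen after their values were seen. Calls used limma 3.58.1 in R 4.3.3, with eBayes, at an adjusted p under 0.05. Pairs used permutation tests in scipy 1.17.1 (numpy 2.4.6, pandas 2.3.3, Python 3.11.15). The limma step was tested on simulated data, where 200 of 200 changed genes were recovered with 10 false calls among 9706 genes in the fit on the control signal. The simulated noise was independent between genes and fetuses, whereas real genes share the main axis and some fetuses a litter. The false calls on the real arrays therefore cannot be read from it. Alternatives were no filter, a stricter filter (the 75th percentile), the mean of probe sets, centred arrays, control signal regressed out, updated symbols and fetuses left out. The mean of probe sets took only those that passed the filter. The main axis was computed anew in each of these settings. Protein sequences were not analysed here.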

Additional observations from a re-analysis of the deposited data

How the results depend on the processing

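Counts of ZNF genes moved with the filter. Without a filter (201 genes) 11 had a span of at least 1 (5.47%, against 3.95% of all genes). The median span was 0.41 and the mean pairwise r 0.0110. Along the main axis 69 were called lower (34.3%, against 18.8% of all genes) and along TRIM28 38 (18.9%, against 11.5%). With the stricter filter (58 genes) the wide genes were 2 (3.45%, against 2.09%), and the mean r was 0.0685. The main axis then called 22 higher (37.9%, against 43.6%) and 20 lower (34.5%, against 24.7%). The control signal called 8 higher (13.8%, against 17.4%) and 24 lower (41.4%, against 25.7%), and TRIM28 12 lower (20.7%, against 16.7%). These settings tested other numbers of genes. With arrays centred the mean r was 0.00478 and the control signal called 46 higher (32.2%, against 28.1%). With the control signal regressed out 0 genes were wide (against 0.505%), the median span was 0.33 and the mean r 0.0256. In that setting 20 fell along the axis (13.99%, against 15.3%). Without fetus 338 the control signal called 13 higher (9.03%, against 11.3%) and without fetus 313 it called 18 (12.4%, against 13.1%).

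Among the pairs, the mean of probe sets gave ZNF423 with PPARG -0.0595 (reversed), with EBF1 -0.672 (now called), ZNF24 with VEGFA 0.291 (call lost) and ZNF207 with BUB3 0.765 (now called). Centring arrays gave ZNF423 with EBF1 -0.546 (now called), ZNF217 with RCOR1 -0.0363 (reversed) and ZNF644 with EHMT1 -0.451 (lost). The control signal regressed out reversed ZNF207 with BUB3 (-0.121), ZNF219 with SOX9 (-0.113) and ZNF277 with RPS2 (0.0192), and ended the calls of ZNF24 with VEGFA (0.315), ZNF143 with ZNF76 (-0.416) and ZNF644 with EHMT1 (-0.251). Without fetus 338 ZNF423 had -0.0537 with PPARG (reversed) and -0.518 with EBF1 (now called), ZNF219 with SOX9 had -0.135 (reversed) and ZNF644 with EHMT1 -0.385 (lost), and without fetus 313 ZNF423 with PPARG had -0.0225 (reversed). Chosen after seeing the data, leaving out fetuses 376 and 384 brought calls of ZNF423 with EBF1 (-0.490) and ZNF207 with BUB3 (0.674). Also chosen then, regressing out the main axis reversed ZNF423 with EBF1 (0.301), ZNF367 with TOP2A (-0.0395), ZNF219 with SOX9 (-0.0339), ZNF277 with RPS2 (0.373) and ZNF644 with EHMT1 (0.0112), and ended the calls of ZNF24 with VEGFA (0.0334), ZNF592 with ZNF687 (0.456) and ZNF143 with ZNF76 (-0.0827).

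For single genes along the main axis, the sign reversed for ZNF75D (0.0750) and ZNF827 (-0.433) with the mean of probe sets, for ZNF207 (0.0780), ZNF217 (0.187), ZNF219 (-0.0570), ZNF34 (0.0473) and ZNF75D (0.0494) with the control signal regressed out, for ZNF185 (-0.0833) without fetus 338, and for ZNF217 without fetus 313 (0.0658) and without 283 (0.00244). A further 17 values of single genes along the axis lost their call under 1 of these settings or without fetus 338 or 313 (ZNF143, ZNF174, ZNF207, ZNF219, ZNF449, ZNF511, ZNF746 and ZNF75D), and 7 gained one (ZNF384 and ZNF827). The remaining values were 193 for the main results and 322 for single genes. They kept their direction and side of the threshold or moved by less than their jackknife SE. Counts were placed here when they changed by no more than a set ratio, so they could still move. ZNF genes called lower along TRIM28, for example, were 21 (14.7%, against 14.5% of all genes). With the control signal regressed out they were 14 (9.79%, against 11.4%). The main axis was computed anew in each setting, so a changed gene and a changed axis cannot be told apart here. The cause of these changes was not tested. No paired analysis was made, because groups were taken from the labels, which give none, and no shared replicate numbers. The study's own listing of dam, sex and weight was not used for pairing.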

Other observations

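Among the 58 ZNF genes that failed the filter, 5 had a span of at least 1 on the log2 scale, a share near that of all failing genes (8.1%), and they were chosen after their values were seen. The KRAB gene ZNF354A ran from 5.37 in fetus 307 through a median of 5.97 to 7.01 in fetus 338. ZNF23 ran from 6.13 in fetus 283 through 6.71 to 7.60 in fetus 312. ZNF624 (5.46 through 6.18 to 7.48), ZNF770 (6.11 through 6.82 to 7.73) and ZNF518A (5.52 through 6.13 to 7.24) were highest in fetus 338. These levels lie near or below the array medians, so unspecific signal can be a large share of them.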
